A study of Mus musculus with 48 samples.

Results

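The TRBV13 family, known in mice as Vβ8, comprised the V segments TRBV13-1, TRBV13-2 and TRBV13-3. Its members were taken as all entries assigned to one of these 3 segments in 48 TCRβ clone files, which gave 218410 of 959731 entries (22.8%) and 167493 distinct clones of 744876. TRBV13-2 held 98121 of the entries, TRBV13-1 held 62640 and TRBV13-3 held 57649. The repertoires came from 4 C57BL/6 mice, 8 weeks old, numbered 5 to 8, that carried Lewis lung carcinoma (LLC, a lung tumor line of this strain) on the left and the right back for 13 days. CD4+ and CD8+ T cells were sorted from each of the 2 fragments of a tumor, and from the draining lymph node (dLN) of each side the CD44hi cells of both subsets. CD44 marks antigen-experienced T cells and was part of the gate in dLNs only, so organ and gate cannot be told apart. All mice bore tumors, and no tumor-free mouse was analysed here.

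A TCRβ chain is made when a V, a D and a J segment are joined in the thymus, and the join forms the third complementarity determining region (CDR3), the part that touches the peptide. The V segment itself encodes the first and second of these loops, so cells that share TRBV13 share much of the surface that meets the MHC molecule. The family is known for its response to staphylococcal enterotoxin B, a superantigen that binds Vβ8 chains. TRBV13-2 is also a frequent β chain of invariant NKT cells, beside TRBV29 (Vβ7) and TRBV1 (Vβ2). An antibody to NK1.1, a marker of many NKT cells in this strain, was part of the staining panel in both organs. Only the β chain was read here.

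In the GRCm38 annotation the genes lie on the forward strand of chromosome 6, Trbv13-1 at chr6:41116007-41116468, Trbv13-2 at chr6:41121396-41121832 and Trbv13-3 at chr6:41130147-41130585. The last exon of each encodes the V region and ends in the bases that open the CDR3. Over the last 294 bases of the transcripts, TRBV13-2 and TRBV13-3 were the closest pair (91.8% identical, 24 bases different), and TRBV13-1 differed from TRBV13-2 at 33 and from TRBV13-3 at 41. The reads were assigned to segments of the IMGT reference by the authors, not to a genome. The germline starts of the CDR3, from the GENCODE transcripts, are shown because they mark where the V segment ends in the clones described next. TRBV13-1 and TRBV13-3 share these bases, so that assignment between them rests on bases upstream of the CDR3.
TRBV13-1 germline: tgtgccagcagtgatg
TRBV13-2 germline: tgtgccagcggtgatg
TRBV13-3 germline: tgtgccagcagtgatg

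The following CDR3 sequences belong to the most frequent tumor clone of each member in each subset, and to the clones that held most of the differences between mice. Capitals mark the bases between the end of the V and the start of the J segment as the files give them, that is, the D segment and added bases.
TRBV13-1, CD8+, mouse 6, clone 1: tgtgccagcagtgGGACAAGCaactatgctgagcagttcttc
TRBV13-1, CD8+, mouse 6, clone 2: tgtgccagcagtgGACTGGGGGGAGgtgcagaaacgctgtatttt
TRBV13-1, CD8+, mouse 6, clone 3: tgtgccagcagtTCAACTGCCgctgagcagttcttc
TRBV13-2, CD8+, mouse 8, clone 1: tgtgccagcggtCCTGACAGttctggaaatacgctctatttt
TRBV13-2, CD8+, mouse 8, clone 2: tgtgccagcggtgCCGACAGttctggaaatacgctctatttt
TRBV13-2, CD8+, mouse 8, clone 3: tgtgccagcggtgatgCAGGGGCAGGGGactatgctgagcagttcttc
TRBV13-3, CD8+, mouse 5: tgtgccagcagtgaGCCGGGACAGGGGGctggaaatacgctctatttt
TRBV13-1, CD4+, mouse 8: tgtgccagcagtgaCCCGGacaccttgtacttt
TRBV13-2, CD4+, mouse 7: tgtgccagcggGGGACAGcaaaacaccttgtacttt
TRBV13-3, CD4+, mouse 5: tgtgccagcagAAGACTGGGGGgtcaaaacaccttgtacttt

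Each library was drawn to 6 reads per sorted cell, which left 131070 to 2035380 reads and 943 to 10700 TRBV13 clones. A clone was a combination of V segment, J segment and CDR3 nucleotides, and the value of a mouse was the mean of its left and right side, with the fragments of a tumor added. Shares of reads follow both the number of cells and the RNA per cell, which cannot be told apart. Groups were compared by an exact permutation test, two-sided, over the 70 divisions of 4 and 4 mice, which cannot go below p = 0.0286. A segment was called at an unadjusted exact p under 0.05, and adjusted values (Benjamini-Hochberg) were computed over the 23 V segments tested. The 95% Wilson intervals of a segment's share, on estimated cells, reached at most 0.391 percentage points to either side and cover counting error only.

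The family held about the same part of the reads in 3 of the groups and less in CD8+ T cells of the tumor. Its share was 17.1% ± 6.27 (SD, n = 4) in CD8+ tumors, 23.2% ± 0.148 in CD8+ dLNs, 24.9% ± 1.5 in CD4+ tumors and 24.1% ± 0.590 in CD4+ dLNs. Counted by distinct clones, with each clone counted once, the shares were 20.8% ± 0.0522, 22.7% ± 0.0884, 29.8% ± 1.77 and 23.2% ± 0.333 in the same order. By clones, CD4+ tumors thus stood highest, and mice differed least in CD8+ tumors, where they differed most by reads.

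TRBV13-2 was the most frequent of the 3 in every group by distinct clones. It ranked first of all 23 segments in both dLN groups and in CD4+ tumors, and second in CD8+ tumors. In CD4+ tumors the order by reads was TRBV13-2 (14.2% ± 0.221), TRBV13-1 (6.62% ± 1.12) and TRBV13-3 (4.13% ± 0.266), and all neighbours differed (exact p = 0.0286, adjusted 0.0490 over 12 tests). In both dLN groups TRBV13-2 stood above the other two, while the difference between TRBV13-1 and TRBV13-3 missed the threshold (7.26% ± 0.184 and 6.87% ± 0.183 in CD8+ dLNs, 6.41% ± 0.0977 and 5.75% ± 0.384 in CD4+ dLNs, exact p = 0.0571 for each). With reads as deposited it passed in CD4+ dLNs (0.687 points, exact p = 0.0286). In CD8+ tumors no order by reads passed the test (8.54% ± 5.21 for TRBV13-1, 6.34% ± 4.50 for TRBV13-2 and 2.24% ± 0.658 for TRBV13-3). There TRBV13-3 was below TRBV13-1 and below TRBV13-2 in 4 of 4 mice (exact p = 0.0571 for each). TRBV13-1 against TRBV13-2 gave an exact p of 0.543. In the dLNs TRBV13-1 was above TRBV13-3 by reads in 4 of 4 mice in CD8+ cells and in 3 of 4 in CD4+ cells.

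**Figure D1:**
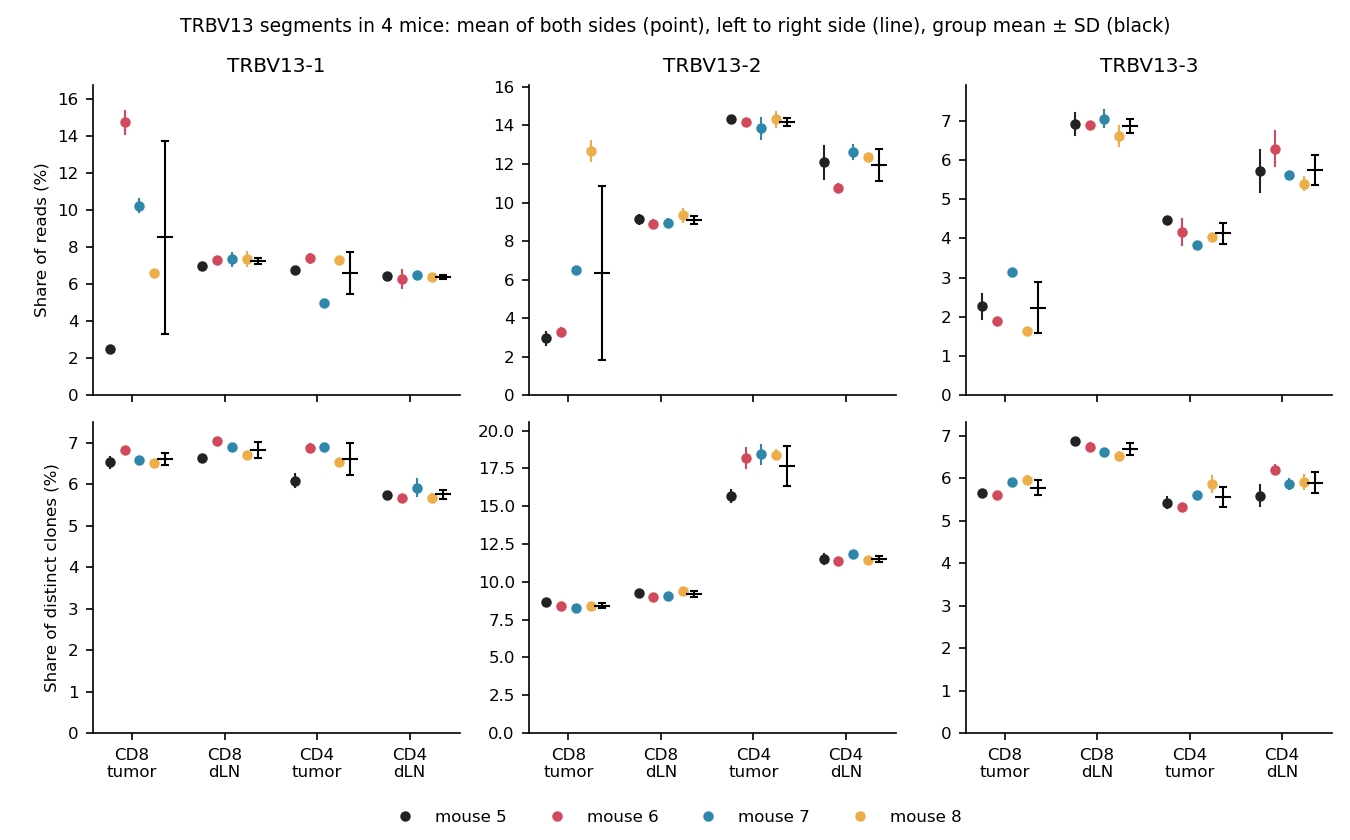
Share of reads (top, %) and of distinct clones (bottom, %) of TRBV13-1, TRBV13-2 and TRBV13-3 in 4 groups. Points are mice, coloured lines join the left and right side, and black marks give the mean ± SD. Reads of TRBV13-1 and TRBV13-2 spread most between mice in the CD8+ tumors, while the clones of TRBV13-2 in CD4+ tumors (15.7% to 18.4%) lie above all other groups.

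In CD8+ T cells, TRBV13-3 was lower in the tumor than in the dLN in all 4 mice. Its share of reads was 2.27%, 1.90%, 3.14% and 1.64% in the tumors of mice 5, 6, 7 and 8, against 6.92%, 6.89%, 7.05% and 6.62% in their dLNs, so that the groups did not overlap. The difference was -4.63 ± 0.508 percentage points (SD, n = 4; exact p = 0.0286, adjusted 0.0597). Of the 23 segments, 11 were called (47.8%), and TRBV13-3 was 1 of 3 members among them. When clones above 1% of a sample were left out of all segments, the TRBV13-3 difference was -2.34 points (exact p = 0.0286). The family as a whole was lower by the same test (difference -6.09 ± 6.16 points, exact p = 0.0286), although without mouse 5 the difference was -3.02 points. Without clones above 1% the family's difference was -3.04 points (exact p = 0.0286).

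TRBV13-1 and TRBV13-2 did not differ between CD8+ tumors and dLNs beyond the spread between mice. TRBV13-1 made up 2.52%, 14.8%, 10.2% and 6.63% of the tumor reads of mice 5, 6, 7 and 8, on both sides of a dLN range of 6.99% to 7.36% (exact p = 0.714). TRBV13-2 made up 2.95%, 3.29%, 6.48% and 12.7%, against 8.90% to 9.33% in the dLNs (exact p = 0.314). The mice with the most TRBV13-1 and the most TRBV13-2 were different mice, 6 and 8, and mouse 5 was lowest for both.

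By distinct clones, TRBV13-2 and TRBV13-3 were lower in CD8+ tumors than in CD8+ dLNs. TRBV13-2 clones made up 8.43% ± 0.146 of the tumor and 9.19% ± 0.202 of the dLN clones (difference -0.753 ± 0.174 points), and TRBV13-3 clones 5.78% ± 0.182 and 6.69% ± 0.152 (difference -0.910 ± 0.321 points). Both had an exact p of 0.0286 (adjusted 0.0411). TRBV13-1 clones did not pass (6.61% ± 0.149 and 6.82% ± 0.190, exact p = 0.171), although their share was lower in the tumor in 4 of 4 mice (-0.208 ± 0.0878 points; with mice as blocks, exact p = 0.125, the smallest 4 mice allow). In this comparison 16 of the 23 segments were called (69.6%). With clones defined by amino acids, the TRBV13-2 difference no longer passed (-0.519 points, exact p = 0.0571).

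A few clones held most of the TRBV13-1 reads of the CD8+ tumors of mouse 6. Clone 1, joined to TRBJ2-1, took 5.74% of the left tumor (95% Wilson interval 5.67% to 5.81%) and 6.22% of the right (6.13% to 6.31%), which is 40.5% of the TRBV13-1 reads. Clone 2, joined to TRBJ2-3, took 3.60% and 4.35%, and clone 3, joined to TRBJ2-1, took 1.12% and 1.15%. Together they came to 11.1 of the 14.8 percentage points. In mouse 7, 3 other clones above 1% held 5.24 of 10.2 points, in mouse 8 there were 2 with 2.65 of 6.63 points, and in mouse 5 none, its largest TRBV13-1 clone being at 0.622%.

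The range of TRBV13-1 between mice was 12.2 percentage points, and without the clones above 1% it was 2.49. With the 10 largest clones of each mouse left out, the remaining shares differed by at most 1.48 points. The number of distinct TRBV13-1 clones followed the share of reads only in part. Mouse 7 held 9462 and mouse 6 held 4712, the reverse of their order by reads. Mouse 8 with 4705 and mouse 5 with 2723 came after them in the same order as by reads.

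TRBV13-2 in the CD8+ tumors of mouse 8 also rested on 3 clones. Clone 1 took 4.68% of the left (4.62% to 4.74%) and 4.58% of the right tumor (4.53% to 4.64%), clone 2 took 2.97% and 3.69%, and clone 3 took 0.929% and 1.19%. The sum of the 3 was 9.02 of 12.7 points. Clones 1 and 2 both used TRBJ1-3 and a CDR3 of 14 amino acids, and their sequences differed at 2 of 42 bases, both in codon 5. No other clone of mouse 8 with this segment, J segment and length was within 1 amino acid of clone 1. Clones within that distance made up 7.96% of the reads in mouse 8, 0.00609% in mouse 7, 0.000111% in mouse 6 and none in mouse 5. Clones 1 and 2 were singled out as a pair after their sequences were seen.

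Mouse 7 had a different make-up for the same segment. Its TRBV13-2 share of 6.48% contained no clone above 1%, the largest being at 0.90%, and was spread over 11824 clones, of which the 10 largest held 2.94 points. Mouse 6 had 1 clone above 1%, joined to TRBJ2-3 (1.17% left and 1.41% right), and the largest clone of mouse 5 differed between sides, with 1.07% left (1.02% to 1.11%) and 0.276% right (0.251% to 0.303%). The range of TRBV13-2 between mice was 9.72 points, 4.48 without the clones above 1% and 2.04 without the 10 largest clones of each mouse.

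TRBV13-3 had no CD8+ clone above 1% on the average of both tumors in any mouse. Its largest, in mouse 5, took 0.584% of the left and 1.17% of the right tumor, and the largest of mouse 8 only 0.136% on average. In mouse 7, where the segment was highest (3.14%), the 10 largest clones held 0.943 points and the rest was spread over 8457 clones in all. Reads of TRBV13-3 relative to its clones stood at 0.387 ± 0.110 in CD8+ tumors and 1.03 ± 0.0256 in CD8+ dLNs, with 0.275 to 0.532 in single tumor-bearing mice. Its tumor clones had fewer reads on average than those of all segments (means of 19.98 ± 1.03 and 55.3 ± 17.1 reads), but not by their median (8.25 and 7.75 reads).

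**Figure D2:**
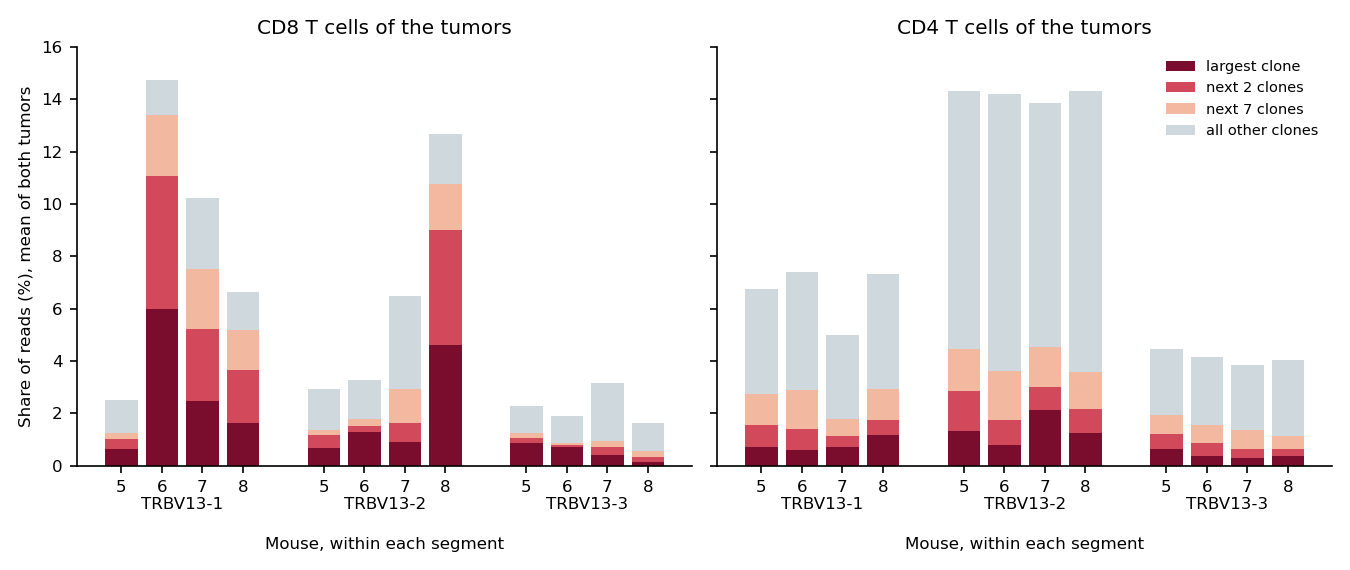
Share of reads (%, mean of both tumors) of each TRBV13 segment in the CD8+ (left) and CD4+ (right) tumors of mice 5 to 8, split by the rank of its clones. In CD8+ cells the largest clone and the next 2 make up 11.1 points of TRBV13-1 in mouse 6 and 9.02 points of TRBV13-2 in mouse 8, while in CD4+ cells the clones beyond the first 10 hold most of each bar.

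These clones were rare in the dLNs of the same mouse. Clone 1 of TRBV13-1 in mouse 6 made up 0.00753% of the left CD8+ dLN and was not found in the right, which allows up to 0.0044% (3 estimated cells of those sorted). Clone 1 of TRBV13-2 in mouse 8 made up 0.0437% of the left and 0.103% of the right dLN, the highest dLN share of any of the 12 CD8+ TRBV13 clones above 1% of the tumors. Of these 12, 10 were read in at least 1 dLN. The left and right tumor shares of the 12 differed by a median of 1.16 times and at most 1.68 times. Clone 1 of TRBV13-1 in mouse 6 was read at up to 0.0119% in CD4+ libraries of that mouse, above its dLN share. Clone 1 of TRBV13-2 in mouse 8 was at up to 0.00679% there, below its dLN shares. Whether the lowest dLN shares were carry-over between libraries was not tested.

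Left and right tumors of a mouse were closer than tumors of different mice for TRBV13-1 and TRBV13-3 in CD8+ cells. TRBV13-1 differed by 0.539 points between the sides of a mouse and by 6.72 between mice, and TRBV13-3 by 0.206 and 0.816 (exact permutation test over 24 pairings, one-sided, p = 0.0417 for both, the smallest it can give). TRBV13-2 differed by 0.579 and 5.39 points (-4.81 points within minus between, exact p = 0.0833), and the value was -1.94 points without mouse 8. Of the 23 segments, 10 were called (43.5%), and none had an adjusted p under 0.0958. Without clones above 1%, TRBV13-1 came to 0.287 points more within mice (exact p = 1). That cut was made on each side separately, so it left out some clones on 1 side only. An example is a TRBV13-1 clone of mouse 8 at 1.15% left and 0.841% right. The cut can thus create differences between sides and cannot show whether the sides were closer without large clones. By distinct clones the TRBV13-1 call was lost (-0.0688 points within minus between, exact p = 0.167). The TRBV13-3 call, at -0.611 points within minus between, was lost at equal depth (-0.644, exact p = 0.0833) and by distinct clones (-0.128, exact p = 0.167). The TRBV13-3 value was -0.172 without mouse 7 and -0.944 without mouse 5. Without clones above 1% it was -0.301 (exact p = 0.25), but there the cut left out the largest TRBV13-3 clone of mouse 5 on the right side only (0.584% left and 1.17% right).

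In the other groups no TRBV13 segment passed this test. In CD4+ tumors 7 of 23 segments were called (30.4%), and TRBV13-1 came closest of the members, with 0.251 points within and 1.30 between mice (exact p = 0.0833), a difference of -1.05 that was -0.116 without mouse 7. In the dLNs, 0 of 23 segments passed the unadjusted exact test in CD8+ cells (0%) and 0 in CD4+ cells (0%), and within-mouse differences of the members were 0.301 to 0.809 points.

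Most large TRBV13 clones were within 2-fold between the sides. Among clones at 0.1% or more of the reads on average, 25 of TRBV13-1, 24 of TRBV13-2 and 6 of TRBV13-3 in CD8+ tumors were each found on both sides. Of these, 24, 17 and 5 were within 2-fold between left and right. In CD4+ tumors the counts were 42, 70 and 20, again all on both sides, with 40, 66 and 20 within 2-fold. The 7 CD8+ TRBV13-2 clones beyond 2-fold left 70.8% within that limit. A pair of them, both in mouse 8, was nearly one-sided, with 0.286% left and 0.00122% right (235-fold) and with 0.00236% left and 0.198% right (84-fold).

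**Figure D3:**
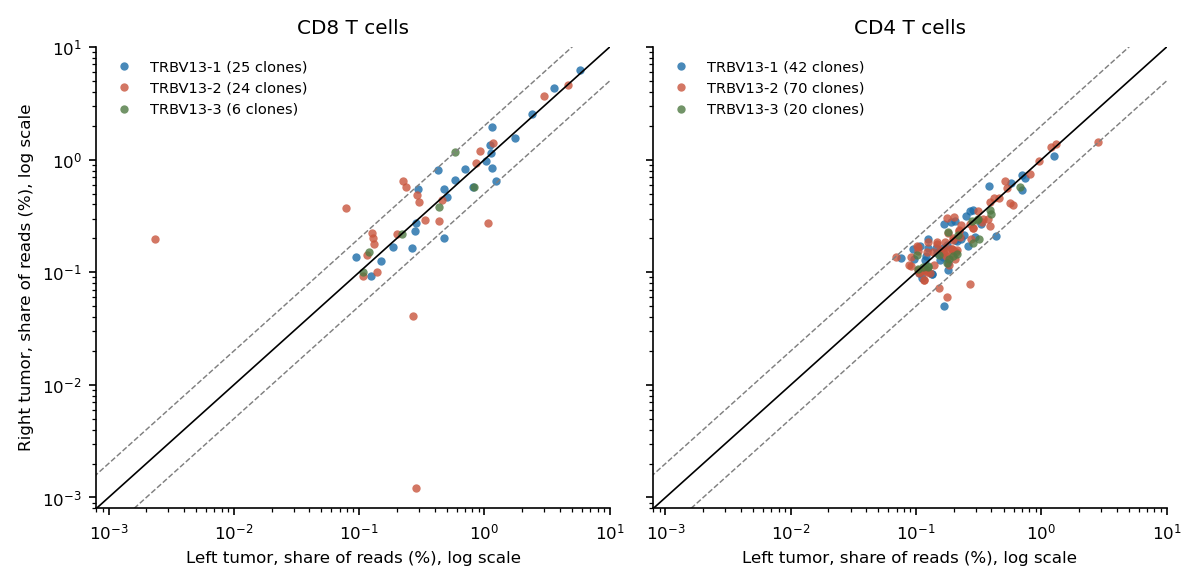
Share of reads (%, log scale) in the left and the right tumor for TRBV13 clones at 0.1% or more on average, CD8+ on the left and CD4+ on the right. Each point is a clone of 1 mouse, the solid line marks equal shares and the dashed lines 2-fold differences. Most points lie between the dashed lines, 17 of 24 for CD8+ TRBV13-2, and a pair of CD8+ TRBV13-2 clones of mouse 8 lies far off, with 235-fold and 84-fold differences.

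In CD4+ T cells, TRBV13-2 took a larger part of the distinct clones in the tumor than in the dLN. It made up 15.7%, 18.2%, 18.4% and 18.4% of the tumor clones of mice 5, 6, 7 and 8, and 11.5%, 11.4%, 11.8% and 11.4% of the dLN clones, with no overlap between the groups. The difference was 6.16 ± 1.31 points (SD, n = 4; exact p = 0.0286, adjusted 0.0438). TRBV13-1 was also higher, with 6.60% ± 0.381 and 5.75% ± 0.117 (difference 0.851 ± 0.369 points, exact p = 0.0286), whereas TRBV13-3 did not pass (5.55% ± 0.24 and 5.89% ± 0.251, exact p = 0.143), with a lower tumor share in 4 of 4 mice (-0.337 ± 0.373 points). In this comparison 15 of 23 segments were called (65.2%). With a minimum of 6 reads per clone, TRBV13-1 no longer passed (0.479 points, exact p = 0.0571), the TRBV13-2 difference was 5.58 points (exact p = 0.0286) and that of TRBV13-3 passed (-0.640 points, exact p = 0.0286).

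Mouse 5 had the lowest TRBV13-2 share of the 4 and also the shallowest CD4+ tumor libraries, with 131070 to 336444 drawn reads per fragment against 261582 to 901866 in the other mice. At equal depth in all samples the difference was 5.92 points, and without mouse 5 it was 6.81 points.

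By reads, TRBV13-2 was higher and TRBV13-3 lower in CD4+ tumors than in CD4+ dLNs. TRBV13-2 made up 14.3%, 14.2%, 13.9% and 14.3% of the tumor reads in mice 5 to 8 and 12.1%, 10.7%, 12.6% and 12.3% of the dLN reads, a difference of 2.22 ± 0.922 points. TRBV13-3 made up 4.47%, 4.17%, 3.83% and 4.05% of the tumor reads and 5.73%, 6.29%, 5.61% and 5.39% of the dLN reads, a difference of -1.62 ± 0.400 points. Neither pair of groups overlapped (exact p = 0.0286 for both), but the adjusted value was 0.0939, and 7 of 23 segments were called (30.4%). TRBV13-1 did not pass (6.62% ± 1.12 and 6.41% ± 0.0977, exact p = 0.857).

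In CD4+ tumors TRBV13-2 held a larger share of the small clones than of the large ones. Among clones of up to 1 estimated cell (at most 6 reads), TRBV13-2 made up 19% ± 1.16, among clones of 1 to 10 cells 18.3% ± 1.82, among those of 10 to 100 cells 13.6% ± 0.627 and among those over 100 cells 12.8% ± 1.51. In CD4+ dLNs the first 3 classes stood at 11.1% ± 0.208, 11.7% ± 0.244 and 12.4% ± 1.99. The share was thus lower among larger clones in the tumor and not in the dLN, as a description with no test. Reads relative to clones were 0.805 ± 0.0728 for TRBV13-2 in CD4+ tumors and 1.04 ± 0.0619 in CD4+ dLNs. The ratio was lower in the tumor for TRBV13-3 too (0.745 ± 0.0693 and 0.977 ± 0.0525), while TRBV13-1 stood at 1.01 ± 0.190 and 1.11 ± 0.0138.

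**Figure D4:**
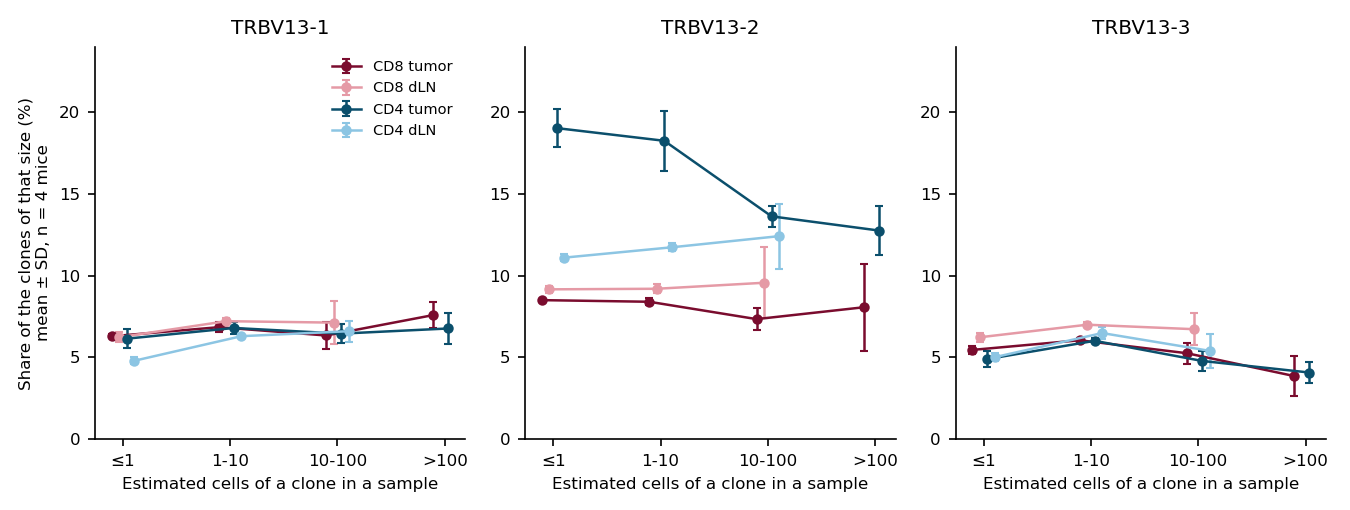
Share (%) of each TRBV13 segment among clones of a given size, in estimated cells per sample, as mean ± SD over 4 mice. The class over 100 cells is drawn for tumors only. For TRBV13-2 in CD4+ tumors the share goes from 19% in the smallest to 12.8% in the largest clones, while TRBV13-1 and TRBV13-3 stay between 3.86% and 7.59% in the tumors.

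Sharing of CD4+ tumor clones between the tumors of a mouse is given as a description, with no test. Of the TRBV13-2 clones, 30.5% ± 0.496 were present on the other side, compared with 38.3% ± 0.859 over all segments, which placed TRBV13-2 at rank 21 of 23. The other members ranked next to it, TRBV13-3 at 20 (31.6% ± 2.30) and TRBV13-1 at 19 (34.2% ± 1.45). In a dLN of the same mouse, 19.9% ± 2.81 of the TRBV13-2 clones were found, against 26.8% ± 3.21 over all segments (rank 20). By reads the clones shared by both tumors still held 79.8% ± 3.30 of TRBV13-2. In CD8+ tumors TRBV13-2 stood differently, at rank 9 for the other side (14.5% ± 2.17 of clones) and first of 23 for the dLN (10.1% ± 1.36).

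Among all segments, the share of distinct clones over the 16 values of 4 groups and 4 mice was most like that of TRBV13-1 for TRBV29 (Pearson r = 0.894) and TRBV17 (0.698). For TRBV13-2 these were TRBV1 (0.849) and TRBV24 (0.803), and for TRBV13-3 they were TRBV4 (0.727) and TRBV14 (0.711). The members were less like each other, with r = -0.0122 for TRBV13-1 and TRBV13-2, 0.234 for TRBV13-1 and TRBV13-3 and -0.522 for TRBV13-2 and TRBV13-3. The points share libraries and the shares of a library add up to a whole, so these values are a description.

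TRBV29, the Vβ7 segment named above, rose from 1.95% ± 0.0619 of the clones in CD4+ dLNs to 6.10% ± 0.819 in CD4+ tumors (difference 4.15 ± 0.774 points, exact p = 0.0286, adjusted 0.0438). Its CD4+ tumor clones were the least shared of all 23 segments, with 20.8% ± 2.38 found in the other tumor and 8.47% ± 1.62 in a dLN. TRBV1, the Vβ2 segment, went from 8.00% ± 0.152 to 8.47% ± 0.332 (exact p = 0.0286), with 42.6% ± 1.11 of its tumor clones found on the other side. Of the other segments named as most alike, TRBV17 (1.18% to 1.75%) and TRBV24 (0.274% to 0.443%) also rose (exact p = 0.0286 for both). Of their CD4+ tumor clones, 34.6% ± 1.12 and 34.5% ± 4.59 were found on the other side. TRBV4 was lower in the tumor (3.96% and 2.92%, exact p = 0.0286), and TRBV14 did not pass (1.90% and 1.66%, exact p = 0.171). Whether invariant NKT cells took part in the TRBV13-2 result was not tested, since α chains were not read here.

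The CD4+ tumor clones above 1% numbered 3 for TRBV13-2, 1 for TRBV13-1 and 0 for TRBV13-3. The largest was the TRBV13-2 clone of mouse 7, joined to TRBJ2-4, at 2.83% of the left tumor (2.77% to 2.90%) and 1.43% of the right tumor (1.38% to 1.47%), and it was not found in either dLN (upper limits 0.00707% and 0.00572%, again 3 estimated cells). The TRBV13-2 clone of mouse 5, joined to TRBJ1-1, took 1.30% and 1.38% of the tumors and was frequent in the dLNs, at 0.491% and 0.610%. The TRBV13-1 clone of mouse 8, joined to TRBJ2-4, took 1.26% and 1.07% of the tumors and 0.0224% and 0.0413% of the dLNs. Large CD4+ clones thus ranged from absent to common in the dLNs. The TRBV13-2 total ranged over 0.480 points between mice, over 2.47 points without the clones above 1% and over 1.39 without the 10 largest clones of each mouse.

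Between the subsets, all 3 members differed in the dLNs. CD8+ dLNs held more TRBV13-1 (difference 0.852 ± 0.218 points of reads) and TRBV13-3 (1.12 ± 0.362) and less TRBV13-2 (-2.87 ± 0.755), each with an exact p of 0.0286 (adjusted 0.0329). By reads 20 of 23 segments were called (87%), so that a difference between the subsets was the rule. By distinct clones the differences were 1.06 ± 0.220, 0.796 ± 0.341 and -2.34 ± 0.318 points (exact p = 0.0286, adjusted 0.0299), with 22 of 23 called (95.7%). For TRBV13-3 the call was lost by reads in the right dLNs alone (0.970 points, exact p = 0.0571) and by clones with a minimum of 6 reads (0.577 points, exact p = 0.0571).

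In the tumors TRBV13-2 was lower in CD8+ than in CD4+ cells by both measures. The difference was -7.83 ± 4.49 points of reads (exact p = 0.0286, adjusted 0.0939) and -9.25 ± 1.47 points of clones (exact p = 0.0286, adjusted 0.0387). TRBV13-3 was lower by reads (-1.89 ± 0.807 points, exact p = 0.0286) and not called by clones (0.223 ± 0.102 points, above 0 in 4 of 4 mice, exact p = 0.143). Its difference by reads became 0.0831 points without clones above 1% (exact p = 0.8). TRBV13-1 was called by neither (exact p = 0.543 and 1). Over all segments 30.4% were called by reads and 73.9% by clones.

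The change from dLN to tumor differed between the subsets for TRBV13-1 and TRBV13-2 by clones. For TRBV13-2 it was -0.753 ± 0.174 points in CD8+ and 6.16 ± 1.31 points in CD4+ cells (difference -6.91, exact p = 0.0286, adjusted 0.0469), and for TRBV13-1 it was -0.208 ± 0.0878 and 0.851 ± 0.369 points (difference -1.06, exact p = 0.0286, adjusted 0.0469). TRBV13-3 did not pass by clones (-0.573 points, exact p = 0.0857). Of the 23 segments, 14 were called (60.9%). By reads the TRBV13-1 difference was 1.06 points (exact p = 0.714), and its sign depended on single mice, with -0.683 without mouse 6 and 3.02 without mouse 5. By reads only TRBV13-3 of the members was called, with a difference of -3.01 points (exact p = 0.0286, adjusted 0.0939), where 30.4% of all segments were called.

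The 3 members shared their most and least frequent J partner and differed in others. TRBJ2-7 was the most frequent partner in every member and group, from 17.8% ± 1.46 of the clones (TRBV13-3, CD4+ dLN) to 22.9% ± 0.469 (TRBV13-2, CD8+ tumor), close to its share among all clones of the same groups (18.8% and 22.2%). TRBJ1-7 was the least frequent, at 0 in 11 of the 12 combinations of member and group and at 0.00448% in TRBV13-1 of CD8+ dLNs. In CD8+ dLNs TRBJ1-1 took 12.9% ± 0.647 of TRBV13-1, 8.63% ± 0.214 of TRBV13-2 and 10.5% ± 0.347 of TRBV13-3 clones. In CD8+ tumors TRBJ2-5 took 9.43% ± 0.604, 13% ± 0.128 and 10.3% ± 0.301, and in CD4+ tumors TRBJ2-7 took 22.4% ± 0.921 of TRBV13-1 clones and 19.3% of all clones. TRBJ1-1 and TRBJ2-5 were picked after their values were seen, and these shares were not tested.

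By reads, J partners of the tumors differed between mice as the large clones did. TRBJ1-3, used by clones 1 and 2 of mouse 8, took 63.3% of the CD8+ TRBV13-2 reads in that mouse and 1.22% in mouse 6. For TRBV13-1 the widest range was that of TRBJ2-7, from 2.14% in mouse 6 to 58.8% in mouse 8, and for TRBV13-3 that of TRBJ1-3, from 2.13% in mouse 6 to 39.9% in mouse 5. In CD4+ tumors the widest ranges were 3.64% to 25.9% for TRBJ1-1 with TRBV13-1, 8.22% to 28.2% for TRBJ2-4 with TRBV13-2 and 11.2% to 25.7% for TRBJ2-7 with TRBV13-3. In CD8+ dLNs no J segment of a member ranged over more than 2.75 points between mice, and in CD4+ dLNs none over more than 8.54 points.

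CDR3 loops of TRBV13 clones most often had 14 amino acids, and TRBV13-2 had the longest on average. The mean length over distinct clones lay between 13.7 (TRBV13-3, CD8+ dLN) and 14.1 (TRBV13-2, CD4+ tumor) amino acids. In CD8+ cells all 3 members had longer loops in the tumor, by 0.0889 ± 0.0145 for TRBV13-1, 0.0513 ± 0.0248 for TRBV13-2 and 0.148 ± 0.020 for TRBV13-3 (exact p = 0.0286, adjusted 0.0387). Clones of 12 amino acids made up 13.4% ± 0.140 of TRBV13-1 in the dLN and 10.8% ± 0.464 in the tumor. Of the 23 segments, 17 were called (73.9%), all of them longer in the tumor. The TRBV13-2 call was lost at equal depth, with a minimum of 6 reads, with both sides added and on the right side alone (exact p = 0.0571, 0.0571, 0.0571 and 0.2). Averaged over reads, TRBV13-3 no longer passed (0.317, exact p = 0.343) and TRBV13-2 was at -0.0317 (exact p = 1).

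In CD4+ cells TRBV13-2 was called, with longer loops in the tumor by 0.188 ± 0.0227 amino acids (14.1 and 13.9, exact p = 0.0286, adjusted 0.0821), with 8 of 23 segments called (34.8%). Clones of 16 amino acids made up 9.22% ± 0.448 of its clones in the dLN and 11.4% ± 0.707 in the tumor, and those of 17 made up 2.22% ± 0.21 and 3.66% ± 0.527, with no test of single lengths. TRBV13-3 loops were longer in 4 of 4 mice by 0.0735 amino acids (exact p = 0.0857), and this passed with both sides added (0.0960) and on the left side (0.137, exact p = 0.0286 for both). Averaged over reads instead of clones, the differences were -0.0818 amino acids for TRBV13-2 (exact p = 0.486) and -0.435 for TRBV13-1 (exact p = 0.0286). Between CD8+ and CD4+ tumors no member was called, while 69.6% of segments were. TRBV13-1 came to 0.0923 (exact p = 0.0571) and passed by amino acid clones (0.103), with carry-over from other mice removed (0.0930) and over reads (0.657; exact p = 0.0286 for each). Between the subsets of the dLN, TRBV13-2 was longer (0.109 ± 0.0259) and TRBV13-3 shorter (-0.0996 ± 0.0621) in CD8+ cells (exact p = 0.0286, adjusted 0.0438), where 65.2% of segments were called. The TRBV13-3 call was lost with both sides added (-0.0770, exact p = 0.0857), by amino acid clones (-0.0812, exact p = 0.0857) and on the left side (-0.0489, exact p = 0.2).

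**Figure D5:**
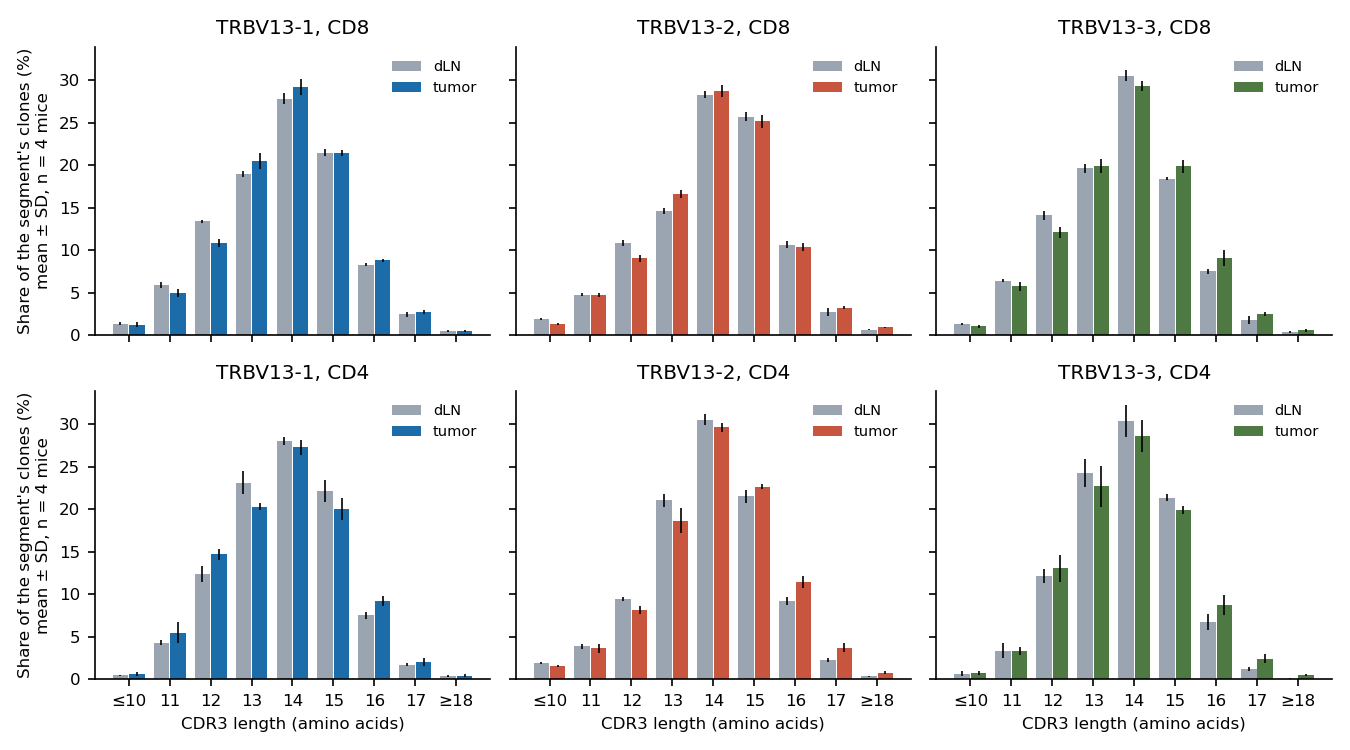
Distribution of CDR3 length (amino acids) over the distinct clones of each TRBV13 segment, as mean ± SD over 4 mice, in dLNs (grey) and tumors (coloured), for CD8+ (top) and CD4+ cells (bottom). In CD8+ cells the bars at 12 amino acids are lower in the tumor for each member, such as 10.8% against 13.4% for TRBV13-1, and in CD4+ cells those of TRBV13-2 at 16 and 17 are higher.

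In the joins, V segments reached furthest into the CDR3 for TRBV13-2 and least far for TRBV13-3, with group means of 13.8 to 14.3 and 13.1 to 13.3 bases up to the V end. The number of bases between the V and the J segment was higher in the tumor than in the dLN for every member in both subsets, for example 9.84 ± 0.0826 against 9.42 ± 0.104 for TRBV13-2 in CD4+ cells and 9.62 ± 0.0690 against 9.25 ± 0.0658 for TRBV13-3 in CD8+ cells. No D segment was named for 21.1% to 25.4% of the clones. TRBD2 was named more often in the CD8+ tumors than in the CD8+ dLNs, in 43.3% against 40.8% of TRBV13-2 clones and 36.4% against 32.6% of TRBV13-1 clones. These values were not tested.

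Few TRBV13 receptors were common to the mice. By V segment, J segment and CDR3 amino acids, 1.61% of the TRBV13-2 receptors of CD8+ dLNs (303 of 18815) were found in all 4 mice, against 0.780% over all segments, and 0.739% and 0.764% of TRBV13-1 and TRBV13-3. In the CD8+ tumors these shares were 0.878% for TRBV13-2 and 0.596% over all segments. In CD4+ tumors 40 of 13249 TRBV13-2 receptors (0.302%), 2 of TRBV13-1 (0.0384%) and 1 of TRBV13-3 (0.0226%) were found in 4 mice, against 0.168% over all segments. By CDR3 nucleotides instead of amino acids, the CD8+ clone 1 of TRBV13-2 in mouse 8 was found in no other mouse.

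Some TRBV13 clones were read in both subsets of a mouse, 2935 in all, which is 6.26% of the CD4+ and 2.32% of the CD8+ clones of the family. The most frequent CD8+ clones were read at no more than 0.0121% in CD4+ libraries of the same mouse. Removing the rarer copy of clones at least 100 times more frequent in the other subset left the TRBV13-2 difference of the CD4+ cells at 6.18 points. Between the 2 fragments of a tumor, shares of reads differed on average by 1.36 ± 1.52 points for TRBV13-1 and 0.736 ± 0.83 for TRBV13-2 in CD8+ cells (SD, n = 8 tumors), and by 0.195 ± 0.105 and 0.640 ± 0.752 in CD4+ cells. The largest difference, 4.77 points, was that of TRBV13-1 in a CD8+ tumor, still below its range between mice.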

How the data were processed

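TCRβ clones of 48 libraries from 4 mice were processed. The authors trimmed reads with Cutadapt 3.2 and built in-frame clones on IMGT segments with MiXCR. Each deposited file lists a read count per clone and the fraction this makes of the library. A genome build is not given in the sources used here, and segment positions are those of GRCm38. Molecular identifiers were not used. Deposited counts (326582 to 4840722 reads per library) preceded down-sampling, so every library was drawn once without replacement to 6 reads per sorted cell, with the cell numbers of the study.

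Members, lists and tests were chosen with earlier results of these data known. The rule for named items took all 3 members, the 2 segments most like each, their J segments with the highest share, the lowest share and the widest range, and the largest tumor clones. V and J ends were read as 0-based positions, since 97.2% to 97.7% of clones carried germline bases exactly to the V end so read. Exact permutation tests used Python 3.11.15, numpy 2.4.6 and pandas 2.3.3, intervals used scipy 1.17.1, and the tests were tested on simulated data. Sides, subsets and organs are paired by mouse number from the labels. With the mouse as a replicate block there are 16 sign changes, so no exact p can be below 0.125 and the block gives values only. Alternatives covered depth, the draw, read minimums, carry-over, clone definition, sides, clones above 1% and leaving out each mouse.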

Additional observations from a re-analysis of the deposited data

Results flagged for a closer look

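Of 48 groups of 4 mice examined for a mouse far from the others, 6 held one, where chance gives about 1 in 20 for a single group. The groups are not independent, since the family adds up its members and the measures share libraries. The count therefore cannot be compared with chance. The TRBV13-1 share of reads in the CD8+ dLN of mouse 5 was 6.99%, against 7.34% to 7.36% in the other mice. The family's share of reads in the CD8+ tumors of mouse 5 was 7.74%, against 19.9% to 20.9%, and in the CD4+ tumors of mouse 7 it was 22.7%, against 25.6% to 25.8%. Mouse 5 also stood apart in the CD4+ tumors by distinct clones of TRBV13-2 (15.7%, against 18.2% to 18.4%), by those of the family (27.2%, against 30.4% to 30.9%) and by the family's mean CDR3 length (13.9 amino acids, where the other mice had 14).

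The change from dLN to tumor differed between CD8+ and CD4+ cells in 5 measures, each with the smallest value the exact permutation test over 70 divisions can give (p = 0.0286). Over the 23 segments the same test called 30.4% by reads (lowest adjusted p = 0.0939) and 60.9% by clones (lowest adjusted p = 0.0469). The family was not among the 23 and has no adjusted p. By reads the CD8+ change was lower by -3.01 points for TRBV13-3 and by -6.91 points for the family. The family's difference by reads was -3.66 points without mouse 5, the mouse whose family share stood apart in the CD8+ tumors, and that of TRBV13-3 was -2.88 points. Both values have no test, since 3 mice against 3 give no exact p below 0.1. By distinct clones the differences were -1.06 points for TRBV13-1, -6.91 for TRBV13-2 and -8.55 for the family, and without mouse 5 they were -1.26, -7.60 and -9.27 points. The per-mouse changes of the subsets did not overlap in these 5 measures.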

How the results depend on the processing

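Of 660 alternative values for 100 results that change the counting, filtering or test, 591 kept their direction and, where there was a test, their side of the threshold, 33 changed sign, 21 lost and 12 gained a call, and 3 moved. Where a cause is not named, it was not tested. A further 444 values leave out 1 mouse (no exact p below 0.1 with 3 against 3) or use the replicate block (none below 0.125). They have no test and say nothing about calls: 422 of them moved by less than an SD over mice, 22 moved by more, and 17 changed sign. For differences between groups this SD was pooled over the groups compared. The block leaves each mean as it is (6.16 points for TRBV13-2 clones in CD4+ cells, exact p = 0.125).

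By reads, TRBV13-3 in CD8+ minus CD4+ tumors was 0.0831 points without clones above 1%, and the family in CD8+ minus CD4+ dLNs passed at equal depth (-0.906) and on the right side (-1.33). By clones, the tumor difference of TRBV13-1 between subsets was -0.00663 with reads as deposited, -0.126 with both sides added and -0.00394 by amino acids, and that of TRBV13-3 was -0.00310 with both sides added. The family difference by clones between subsets of the dLN no longer passed with reads as deposited (-0.417), at equal depth (-0.469) and on the left (-0.382). The TRBV13-1 change in CD8+ minus CD4+ cells was 1.06 by reads (exact p = 0.714) and -1.06 by clones (exact p = 0.0286). By reads it was -0.683 without mouse 6 and 3.02 without mouse 5. Without 1 mouse, an alternative chosen after seeing the data, the family's change by reads in CD8+ minus CD4+ cells ranged from -8.73 to -3.66 points.

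Mean CDR3 lengths weighted by reads gave -0.0317 for TRBV13-2 in CD8+ tumor minus dLN, and -0.0818, -0.0260 and -0.172 for TRBV13-2, TRBV13-3 and the family in CD4+ cells. Between tumor subsets they gave 0.167 and 0.118 for TRBV13-2 and TRBV13-3, and the family turned from -0.0374 (exact p = 0.143) to 0.412 and passed (exact p = 0.0286). They gave 0.00698 for TRBV13-1 between dLN subsets. TRBV13-1 in CD4+ cells was 0.00328 with both sides added and 0.0150 on the left, the family there 0.105 on the right (no longer called), and TRBV13-2 between tumor subsets 0.00149 with at least 6 reads. The family between dLN subsets was 0.00233 with at least 6 reads, 0.0124 with both sides added, 0.0166 by amino acids and 0.00709 on the left.

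For differences within minus between mice, TRBV13-1 in CD8+ tumors was 0.287 without clones above 1%. This cut was made on each side separately and can itself create differences between sides, so these values do not test the calls. At this setting TRBV13-2 was -0.0167 in CD8+ dLNs and -0.699 in CD4+ tumors, and the family in CD4+ tumors passed (-1.07). By clones the values were 0.162 for the family in CD8+ tumors, -0.165, -0.0987, -0.0871 and -0.00380 for the 3 members and the family in CD8+ dLNs, -0.871 for TRBV13-2 in CD4+ tumors, and -0.00755 and -0.0658 for TRBV13-1 and the family in CD4+ dLNs. With reads as deposited TRBV13-3 in CD4+ dLNs was 0.0116. Without 1 mouse the family ranged from -8.04 to 0 in CD8+ tumors (0 without mouse 5) and from -1.57 to 0.101 in CD4+ tumors (0.101 without mouse 7).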
